A study of Rattus norvegicus with 15 samples.

Results

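Genes of the endoplasmic reticulum (ER) stress response and the integrated stress response were followed in the intestine of rats after Roux-en-Y gastric bypass (RYGB). Members were the probes, control spots left out, whose gene name on the array is Hspa5, Hsp90b1, Ddit3, Atf3, Atf4, Xbp1, Trib3, Asns, Pdia4 or Dnajb9. Of these 10 genes 9 were found, with 11 of the 41012 probes, and all 11 were among the 27893 probes tested, so no member was lost to the filter on low values. Xbp1 has no probe under that name and its transcript was not analysed here. Hsp90b1 and Dnajb9 had 2 probes each, which are described separately because probes of 1 gene are not replicates.

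The data came from 15 male rats in 3 groups of 5, and each rat had its own array. The Goto-Kakizaki (GK) rat is a nonobese strain with spontaneous diabetes that was bred from Wistar rats. GK-S-30 rats had RYGB at 16 wk of age with a Roux limb (RL), the stretch of intestine that carries food from the stomach pouch, of 30 cm. GK-Sham-PF rats, called sham rats where they are compared, are GK rats of the same age that were pair-fed and sham-operated, the intestine being cut 16 cm from the ligament of Treitz and joined again in its old order. Wistar rats were the nondiabetic, age-matched, non-operated controls. A piece of the RL or the matching stretch of intestine was taken 14 wk postoperation after an overnight fast. All GK rats therefore carried the diabetic background, both GK groups had been operated on, and no array came from GK rats without an operation. The tissue was a whole segment, so a lower share of a cell type and less RNA per cell of it cannot be told apart. Levels below are log2 of the processed spot intensity after quantile normalization, and 1 unit is a 2-fold difference. Log2 fold changes are written as GK-S-30 minus sham rats, as sham minus Wistar rats, or as GK-S-30 minus Wistar rats.

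Secretory and membrane proteins fold in the ER with the help of chaperones such as Hspa5 (BiP, also known as GRP78) and Hsp90b1 (GRP94). When unfolded proteins accumulate, the sensors Ern1, Eif2ak3 and Atf6 raise chaperones through Xbp1 and Atf6, and slow translation through phosphorylation of eIF2alpha. That phosphorylation, which other kinases produce on amino acid shortage, viral RNA or heme lack, favors translation of Atf4, and Atf4 switches on genes of amino acid supply such as Asns together with Ddit3 and Trib3. Enterocytes, goblet cells, Paneth cells and plasma cells of the intestine all secrete much protein. Atf4 and Xbp1 are controlled to a large part by translation and by splicing, which an expression array does not measure.

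The promoters of 9 of the 10 genes were found in the RefSeq table (build GRCr8), Atf3 not being among them. The ER stress response element is CCAAT, then 9 bases, then CCACG, and it was searched on both strands of the 250 bases before the annotated start. It stood in the promoters of Hspa5, Hsp90b1 and Xbp1, compared with 22 of 33469 promoters (0.0657%). Hsp90b1 held it on both strands, at bases -176 to -158 and, reversed, at -72 to -54 from the start, and Hspa5 at -43 to -25. The amino acid response type of element, TGATG, then any base, then AA, was found in the Trib3 promoter alone among these genes, on the reverse strand at -21 to -14, compared with 3.4% of all promoters. The element was not met in the window of Asns, and neither TGACG directly followed by TGG (0.52% of promoters) nor ATTGG, 1 base and CCACG (0.0418%) was met in any of the genes. A match of letters is a description and says nothing about binding. The 3 promoters below are shown because Hspa5 and Hsp90b1 are the chaperones that carry the ER element and Trib3 carries the other, with the matched letters in capitals. They lie at chr3:38452766-38453015 on the plus strand (Hspa5), at chr7:23012294-23012543 on the minus strand (Hsp90b1) and at chr3:161275534-161275783 on the minus strand (Trib3), each read 5′ to 3′ in the direction of its gene.
Hspa5: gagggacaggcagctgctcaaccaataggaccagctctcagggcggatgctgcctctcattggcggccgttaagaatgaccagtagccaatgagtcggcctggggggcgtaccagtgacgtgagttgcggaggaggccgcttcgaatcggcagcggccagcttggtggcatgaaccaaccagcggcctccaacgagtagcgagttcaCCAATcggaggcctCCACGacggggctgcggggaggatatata
Hsp90b1: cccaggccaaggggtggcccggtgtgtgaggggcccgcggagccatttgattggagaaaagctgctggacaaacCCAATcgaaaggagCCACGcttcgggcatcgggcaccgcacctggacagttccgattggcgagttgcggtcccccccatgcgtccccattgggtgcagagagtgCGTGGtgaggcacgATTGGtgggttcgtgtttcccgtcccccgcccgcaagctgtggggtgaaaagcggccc
Trib3: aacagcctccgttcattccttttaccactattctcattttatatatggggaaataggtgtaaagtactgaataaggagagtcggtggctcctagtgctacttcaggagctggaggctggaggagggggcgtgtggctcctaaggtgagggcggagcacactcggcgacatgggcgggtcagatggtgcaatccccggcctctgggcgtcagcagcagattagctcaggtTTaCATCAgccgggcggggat

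Asns, which makes asparagine from aspartate and glutamine, was the member called in both comparisons of the bypassed intestine. It was 1.77-fold higher in GK-S-30 than in sham rats and 1.75-fold higher than in Wistar rats, and sham and Wistar rats differed by a log2 fold change of -0.013. The classical ER chaperones Hspa5, Hsp90b1 and Pdia4 passed the test in no comparison. Dnajb9, an ER co-chaperone of the Hspa5 system, was higher in GK-S-30 than in Wistar rats by 1 of its 2 probes. The transcription factors Atf4, Ddit3 and Atf3 and the pseudokinase Trib3 did not pass in any comparison.

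By limma with Benjamini-Hochberg adjustment over all tested probes (adjusted p under 0.05), 1 of 11 member probes differed between GK-S-30 and sham rats, where 6.7% of all probes did. Between sham and Wistar rats limma called 0 of 11 members, where 7.83% of all probes were called, but 3 had an unadjusted p under 0.05 and 2 passed Tukey's correction. In GK-S-30 against Wistar rats 2 of 11 were called, where 22.8% of all probes were. At an unadjusted p under 0.05 the 3 comparisons gave 2, 3 and 4 member probes, in the same order, against 20.6%, 18.9% and 34.8% of all probes. The methods' own rule, Tukey's correction for the 3 pairs without adjustment over probes, gave 1, 2 and 3 against 13.9%, 13.5% and 26.5%. The arrays of the groups did not overlap at 0, 1 and 2 member probes, against 7.71%, 8.82% and 18% of all probes. The share of member probes called by limma, 9.09%, 0% and 18.2%, was near or below that of all probes. The median log2 fold change of the 11 probes was 0.0099, 0.060 and 0.24, where that of all tested probes was -0.025, -0.0012 and -0.027.

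**Figure D1:**
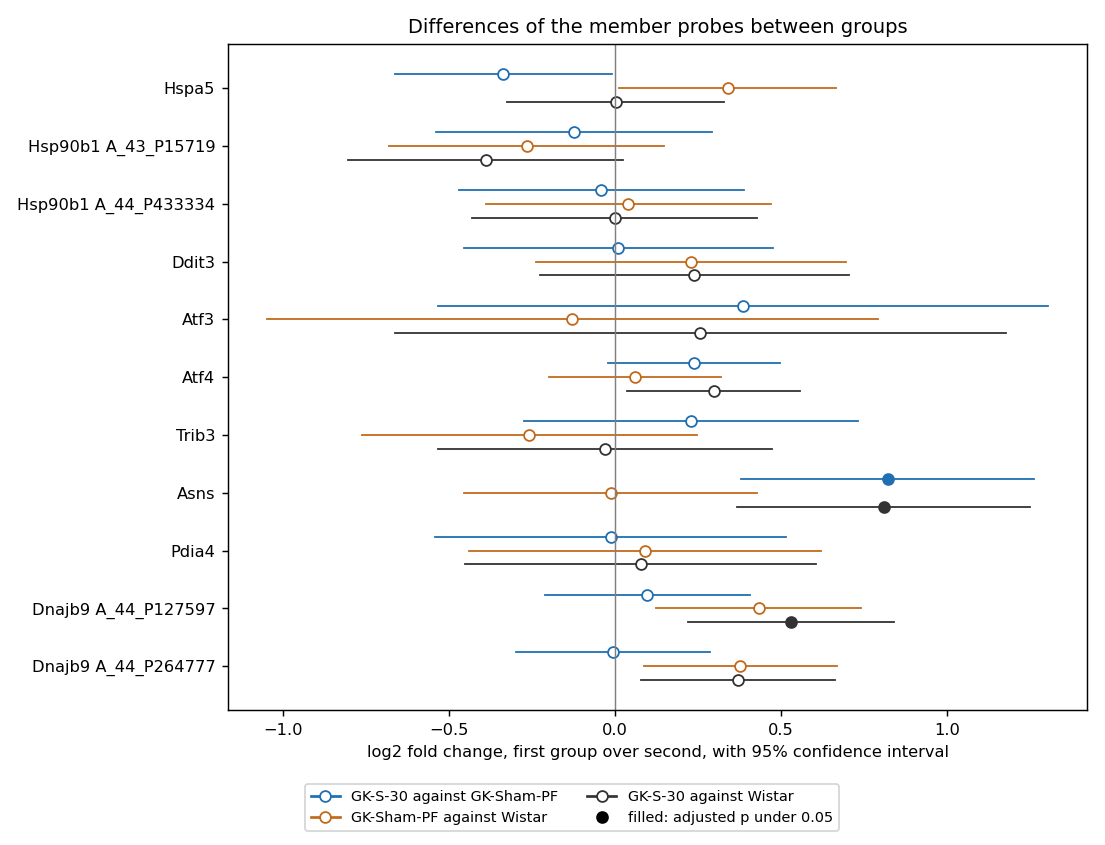
Log2 fold change of each member probe (point) with its 95% confidence interval (line) from limma, for GK-S-30 minus sham rats (blue), sham minus Wistar rats (orange) and GK-S-30 minus Wistar rats (black); filled points have an adjusted p under 0.05. The filled points are Asns in both comparisons of GK-S-30 and 1 Dnajb9 probe against Wistar, and the widest intervals are those of Atf3.

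Among the chaperones, Hspa5 was the brightest member, with a log2 level averaging 14.54 over the 15 arrays. Its levels were 14.08, 14.49, 14.58, 14.39 and 14.58 in Wistar rats, 14.63, 14.80, 14.65, 15.05 and 14.68 in GK-Sham-PF rats, and 14.87, 14.05, 14.34, 14.22 and 14.65 in GK-S-30 rats. Every GK-Sham-PF array lay above every Wistar array, by little at the border, while GK-S-30 rats ran from below all Wistar arrays to above most GK-Sham-PF arrays. The log2 fold change was 0.34 ± 0.15 (SE) between sham and Wistar rats (adjusted p = 0.241) and -0.34 ± 0.15 between GK-S-30 and sham rats (adjusted p = 0.226), so neither passed limma's test. GK-S-30 and Wistar rats had nearly the same mean, 14.43 in both, and the 95% interval of their log2 difference ran from -0.33 to 0.33.

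Hsp90b1, the ER relative of the cytosolic Hsp90 chaperones, gave different pictures by its 2 probes. The 60 bases of A_43_P15719 start at base 2216 of the transcript and those of A_44_P433334 at base 163, close to its 5′ end. On rn4, the build of the file's positions, the first lies on the minus strand of chr7:23334474-23334623 and the second on chr7:23346248-23347359. Both genomic spans are longer than the probe, 150 and 1112 bases, so that each crosses an exon junction. Their sequences are shown because the 2 probes read different stretches of the transcript. The part of probe position in their different values was not tested.
A_43_P15719: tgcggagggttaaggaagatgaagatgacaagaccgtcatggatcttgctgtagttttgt
A_44_P433334: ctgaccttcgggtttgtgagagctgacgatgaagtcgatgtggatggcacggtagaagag

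The probe A_43_P15719 of Hsp90b1 read 12.20, 12.51, 12.08, 12.34 and 12.74 in Wistar rats, 12.09, 12.30, 11.76, 12.54 and 11.86 in GK-Sham-PF rats, and 12.40, 11.51, 12.09, 11.64 and 12.28 in GK-S-30 rats. The groups overlapped throughout, and the log2 fold change of GK-S-30 against Wistar rats was -0.39 ± 0.20 (SE, adjusted p = 0.17 by limma). The probe A_44_P433334 ran from 10.50 to 11.29 in Wistar rats, from 10.56 to 11.43 in GK-Sham-PF rats and from 10.44 to 11.34 in GK-S-30 rats. Here the group means lay between 10.87 and 10.91. The difference between the 2 probes on 1 array ranged from 0.43 to 2.02, and over the 15 arrays their deviations from the group means had a Pearson r of -0.097 (Spearman rho = -0.064, r = -0.23 without the 2 arrays farthest from the median).

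Pdia4, a protein disulfide isomerase that forms and rearranges disulfide bonds in the ER, followed the 5′ probe of Hsp90b1. It read 8.93, 9.17, 10.17, 9.18 and 9.52 in Wistar rats, 9.17, 9.10, 9.27, 9.54 and 10.32 in GK-Sham-PF rats, and 9.64, 9.24, 9.15, 9.56 and 9.75 in GK-S-30 rats. A single array stood above the rest in each of the first 2 groups, Wistar rat 3 and GK-Sham-PF rat 5. These 2 arrays were also the dimmest of the 15, with 75th percentiles of the processed signal of 207 and 208, where the others ran from 302 to 357. The same 2 arrays gave the highest values of their groups at the 5′ probe of Hsp90b1, 11.29 and 11.43. The deviations of Pdia4 and of that probe had a Pearson r of 0.86 over the 15 arrays (rho = 0.84), and of 0.81 without the 2 dimmer arrays. The part of array brightness in these values was not tested. The log2 fold change of Pdia4 was -0.013 ± 0.25 (SE) between GK-S-30 and sham rats and 0.091 ± 0.25 between sham and Wistar rats.

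**Figure D2:**
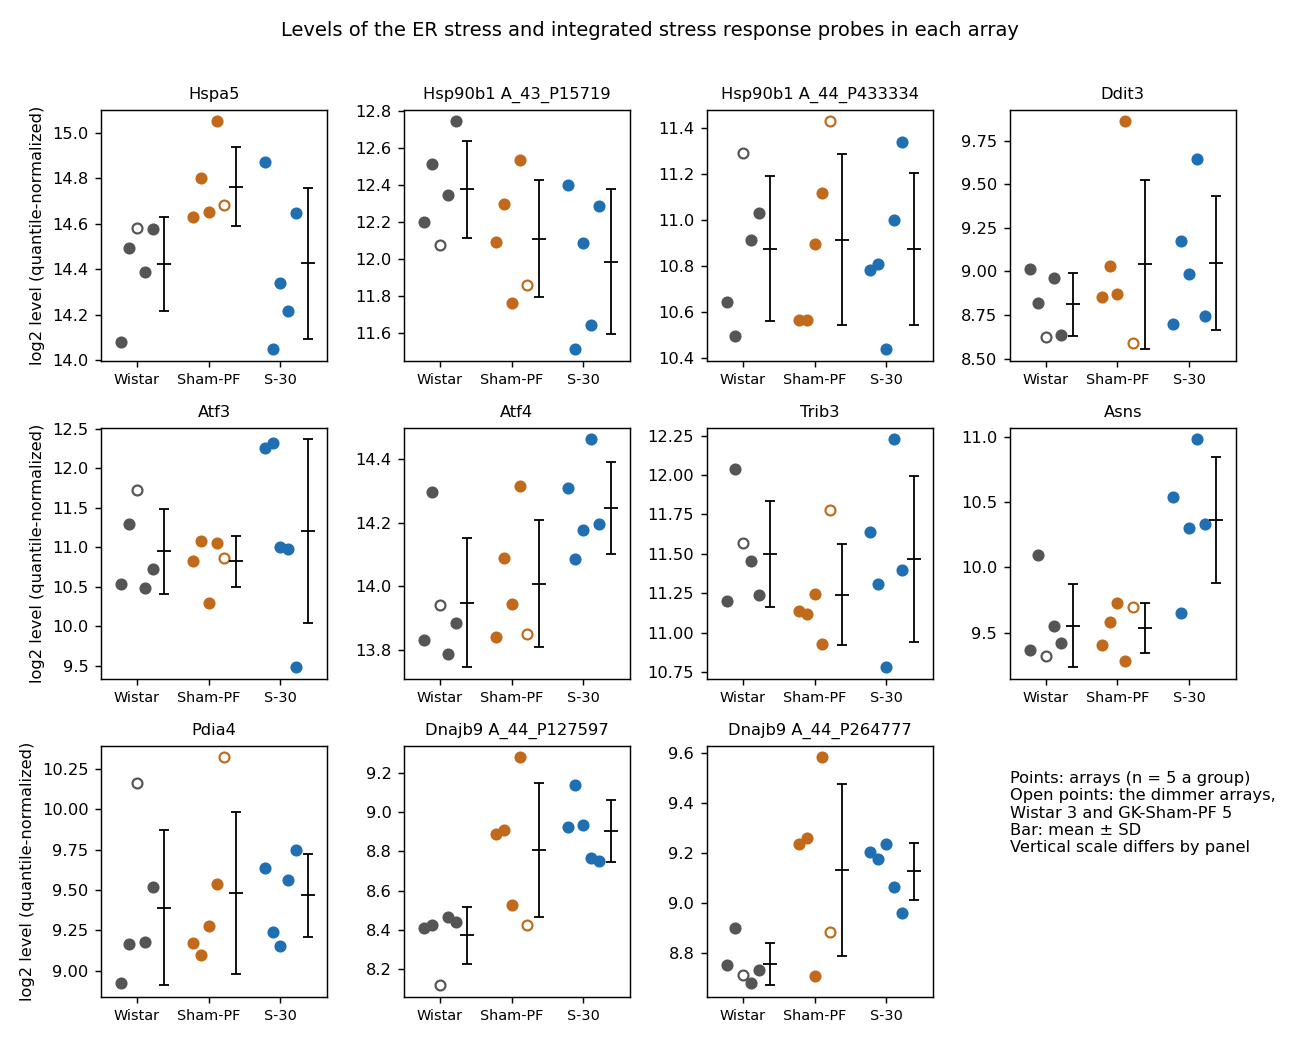
Quantile-normalized log2 level of each member probe (panels) in the 5 arrays of each group (points; open points are the dimmer arrays, Wistar 3 and GK-Sham-PF 5), with the mean ± SD as a bar; the vertical scale differs by panel. In Asns 4 of 5 GK-S-30 arrays lie above all others, in both Dnajb9 panels all GK-S-30 arrays lie above all Wistar arrays, and in Pdia4 the open points are the highest of their groups.

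Dnajb9, also known as ERdj4, hands misfolded proteins to degradation and holds the sensor Ern1 in check. Its probe A_44_P127597 read 8.41, 8.43, 8.12, 8.46 and 8.44 in Wistar rats, 8.89, 8.91, 8.53, 9.28 and 8.42 in GK-Sham-PF rats, and 8.92, 9.14, 8.93, 8.77 and 8.75 in GK-S-30 rats. All GK-S-30 arrays lay above all Wistar arrays, and GK-Sham-PF rats ranged from inside the Wistar values to above all other arrays. The log2 fold change of GK-S-30 against Wistar rats was 0.53 ± 0.15 (SE, adjusted p = 0.0164 by limma), a rise of 1.44-fold with a 95% interval of 1.16 to 1.79. Between sham and Wistar rats it was 0.43 ± 0.15 (adjusted p = 0.0923), and between the GK groups 0.097 ± 0.15 (adjusted p = 0.781).

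The second Dnajb9 probe, A_44_P264777, lies at base 599 of the transcript, upstream of the first at base 1287. It read 8.75, 8.90, 8.71, 8.68 and 8.73 in Wistar rats, 9.23, 9.26, 8.71, 9.58 and 8.88 in GK-Sham-PF rats, and 9.20, 9.17, 9.23, 9.06 and 8.96 in GK-S-30 rats. Again no GK-S-30 array came down to the Wistar range, with a log2 fold change of 0.37 ± 0.14 (SE) that missed the threshold (adjusted p = 0.0638 by limma). The value against GK-Sham-PF rats was -0.0062, and GK-Sham-PF exceeded Wistar rats by 0.38 ± 0.14 (adjusted p = 0.125). The 2 Dnajb9 probes moved together from array to array (r = 0.85, rho = 0.69, r = 0.71 without the 2 arrays farthest from the median). Where each gene was represented by its brighter probe alone, this was the Dnajb9 probe used, and its adjusted p was 0.0544. In a fit of GK-S-30 and Wistar arrays alone its adjusted p was 0.0163, which passed the threshold.

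Atf4, the transcription factor at the center of the integrated stress response, read 13.83, 14.30, 13.94, 13.79 and 13.88 in Wistar rats. It read 13.84, 14.09, 13.94, 14.32 and 13.85 in GK-Sham-PF rats, and 14.31, 14.09, 14.18, 14.46 and 14.20 in GK-S-30 rats. All GK-S-30 arrays lay above 4 of the 5 Wistar arrays, Wistar rat 2 being the exception. Atf4 had a log2 fold change of 0.30 ± 0.12 (SE) against Wistar rats (adjusted p = 0.095 by limma) and 0.24 ± 0.12 against GK-Sham-PF rats (adjusted p = 0.293). Scaling to the 75th percentile brought the first to 0.39 and an adjusted p of 0.0291, and leaving out Wistar rat 2 brought it to 0.38 and 0.0303. Of the 29 alternatives run, these 2 were the ones in which it passed. With slide as a fixed block it was 0.24 with an adjusted p of 0.775, and leaving out 1 array gave an adjusted p of up to 0.20.

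Ddit3 (CHOP), a transcription factor that promotes cell death under prolonged ER stress, was the dimmest member beside Dnajb9. It ranged from 8.62 to 9.02 in Wistar rats, from 8.59 to 9.86 in GK-Sham-PF rats and from 8.70 to 9.64 in GK-S-30 rats. The top of each GK group was a single array, GK-Sham-PF rat 4 and GK-S-30 rat 4, and the rest of both groups stayed at or below 9.18. Ddit3 had a log2 fold change of 0.23 ± 0.22 (SE) between sham and Wistar rats and 0.0099 ± 0.22 between the GK groups. Without GK-Sham-PF rat 4 these became 0.023 and 0.22.

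Atf3, a stress-induced transcription factor that also answers as an immediate early gene, had the widest spread of all members. Its levels in GK-S-30 rats were 12.25, 12.32, 11.00, 10.98 and 9.48, a span of both the highest and the lowest of the 15 arrays. Wistar rats ran from 10.48 to 11.72 and GK-Sham-PF rats from 10.29 to 11.08. The SD was 1.16 in GK-S-30 rats, 0.54 in Wistar rats and 0.32 in GK-Sham-PF rats (n = 5 each). Between the GK groups Atf3 differed by a log2 fold change of 0.39 with a 95% interval from -0.53 to 1.31. On the slide that held 2 arrays of each GK group the difference was 1.33, and those 2 GK-S-30 arrays were the 2 high ones.

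Trib3, a pseudokinase that Atf4 and Ddit3 switch on, read 11.20, 12.04, 11.57, 11.46 and 11.24 in Wistar rats. GK-Sham-PF rats read 11.14, 11.12, 11.24, 10.93 and 11.78, and GK-S-30 rats 11.64, 11.31, 10.78, 12.23 and 11.40. The groups overlapped in all 3 comparisons, with log2 fold changes of 0.23 ± 0.24 (SE) between the GK groups, -0.26 ± 0.24 between sham and Wistar rats, and -0.030 ± 0.24 in GK-S-30 over Wistar rats.

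The probe of Asns (A_44_P480267) starts at base 1686 of the transcript, on the minus strand of chr4:32759136-32759195 of rn4. Its sequence is given because it carries the 1 member call between the GK groups.
Asns probe: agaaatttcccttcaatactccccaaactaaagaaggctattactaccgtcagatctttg

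Asns read 9.37, 10.10, 9.32, 9.55 and 9.42 in Wistar rats, 9.41, 9.58, 9.73, 9.28 and 9.70 in GK-Sham-PF rats, and 10.54, 9.65, 10.30, 10.98 and 10.33 in GK-S-30 rats. Of the GK-S-30 arrays 4 exceeded every other array, and GK-S-30 rat 2 lay inside the range of both other groups. The log2 fold change was 0.82 ± 0.21 (SE) against GK-Sham-PF rats (adjusted p = 0.0272 by limma), 1.77-fold with a 95% interval of 1.30 to 2.40. Against Wistar rats it was 0.81 ± 0.21 (adjusted p = 0.0111), 1.75-fold with an interval of 1.29 to 2.38. Between sham and Wistar rats the interval of the log2 fold change ran from -0.45 to 0.43.

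The rise of Asns over GK-Sham-PF rats stood close to the threshold. Leaving out GK-Sham-PF rat 1, 2 or 4 or GK-S-30 rat 1, 4 or 5 took the adjusted p to between 0.0537 and 0.0665, with log2 fold changes from 0.67 to 0.83. On the slide that held 2 GK-S-30 and 2 GK-Sham-PF arrays the Asns difference was 0.61, with slide as a fixed block the adjusted p was 0.405, and with slide as a random block 0.0223. GK-S-30 and Wistar arrays shared no slide and were linked through GK-Sham-PF arrays alone, which lay on a slide with each. For that comparison the fixed block gave a log2 fold change of 0.81 and an adjusted p of 0.508 for Asns, and 0.54 and 0.554 for the called Dnajb9 probe.

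The genes most like Asns from array to array were sought by the Pearson r of their deviations from the group means over the 15 arrays, among 12260 named genes. The highest 5 were Mthfd2, a mitochondrial enzyme of folate metabolism (r = 0.95), Cars1, which charges cysteine tRNA (r = 0.91), the RNA helicase Ddx19b (r = 0.88), the DNA polymerase subunit Pola1 (r = 0.85) and C3h11orf91 (r = 0.85). All points share the array of each rat, and r is a description. Mthfd2 read 7.47, 5.33, 6.52, 8.04 and 6.90 in GK-S-30 rats, so that GK-S-30 rat 2 was the lowest and rat 4 the highest of its group, as in Asns. In Wistar rats the high array was rat 2 in Asns (10.10), Mthfd2 (7.55) and Cars1 (10.24) alike.

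Without the 2 arrays farthest from the median of Asns, r was 0.88 for Mthfd2 and 0.93 for Cars1, and Spearman's rho over all arrays was 0.85 and 0.93. The other 2 Mthfd2 probes gave r of 0.75 and 0.79. Neither gene was called between groups, the log2 fold change between the GK groups being 0.28 for this Mthfd2 probe and 0.32 for Cars1 (adjusted p = 0.758 and 0.409). Among members Trib3 came closest to Asns, with r = 0.70 (rho = 0.74, 0.70 without the 2 farthest arrays), and Atf4 had r = 0.51, which was 0.33 without them. Of 35 other probes of Atf4 and Ddit3 targets measured on every array, 13 had r over 0.5 with Asns (37.1%). So had 9 of 24 probes of aminoacyl-tRNA synthetases (37.5%), none of 29 of ER chaperones and folding enzymes, and 4.17% of all 27847 probes. Some of the 13 were probes of the same gene, as in Mthfd2, Chac1 and Eif4ebp1. Slc7a1 had r of 0.71 by 1 probe and -0.082 by another, and Aldh1l2 0.53 and -0.077. The targets Ddit3 and Atf3 had r of -0.02 and -0.22.

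Hspa5 moved with other genes. Its deviations had r = 0.79 with the Hsp90b1 probe A_43_P15719 (rho = 0.77, 0.68 without the 2 arrays farthest from the median), 0.29 with the 5′ probe of Hsp90b1 and 0.17 with Asns. The 5 named genes most like Hspa5 were Hmgn2, a chromatin protein (r = 0.87), Trmt10a, a tRNA methyltransferase (r = 0.87), Rpl23, a ribosomal protein (r = 0.85), Tyms, thymidylate synthase (r = 0.85), and Sfpq, an RNA-binding protein (r = 0.85). Of the 55 pairs of member probes 10 had r over 0.5 and 23 were below 0, with a median of 0.077. GK-Sham-PF rat 4 was the highest of its group at 6 of the 11 member probes, Hspa5, both Dnajb9 probes, Ddit3, Atf4 and Hsp90b1 A_43_P15719.

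**Figure D3:**
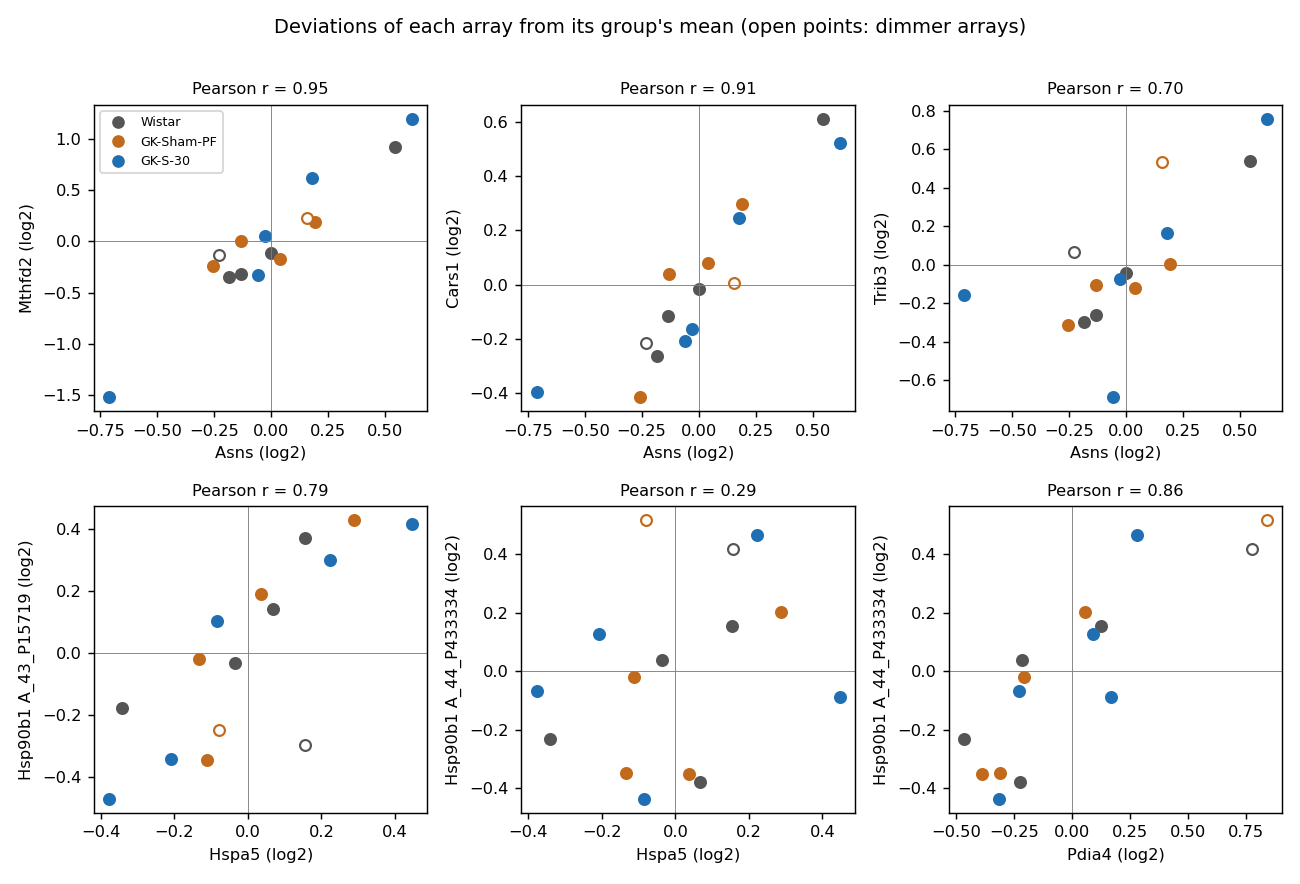
Deviation of each array from the mean of its group (log2), for 6 pairs of probes; each point is 1 of 15 arrays, colored by group, open for the 2 dimmer arrays, with Pearson r above each panel. Asns runs with Mthfd2 (0.95), Cars1 (0.91) and Trib3 (0.70), Hspa5 with 1 Hsp90b1 probe (0.79) and little with the other (0.29), and Pdia4 with the latter (0.86).

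The same GK-Sham-PF rat 4 stood apart in the cytosolic heat shock genes, the chaperones outside the ER. Their summed level (26 probes, linear scale) was 285247 on that array, where the other 14 ran from 100038 to 141009. Leaving this array out lowered the log2 fold change between sham and Wistar rats from 0.34 to 0.27 in Hspa5 (adjusted p = 0.456 by limma), and to 0.31 and 0.27 in the 2 Dnajb9 probes. The part of this heat shock signal in the members' values was not tested. Over the list, GK-Sham-PF rat 4 included, 23 of 26 probes had a higher mean in GK-Sham-PF than in Wistar rats, with a median log2 fold change of 0.42. Of all tested probes 49.8% had a higher mean. Averaged over the 26 probes, the log2 level was 11.39 in GK-Sham-PF rat 4 and 10.02 to 10.37 in the other GK-Sham-PF rats. In Wistar rats it was 9.68 to 10.10. The list was not compared again without that array. It held 1 call, Hspb1, a small heat shock protein, by 1.06 ± 0.28 (SE, adjusted p = 0.028 by limma). The largest differences, 2.20 and 2.34 for Hspa1a and Hspa1b, the inducible Hsp70 genes, were not called (adjusted p = 0.113 and 0.121). In GK-S-30 against sham rats, GK-Sham-PF rat 4 included, 5 of the 26 heat shock probes had a higher mean, where 45.6% of all tested probes had. Their median log2 fold change was -0.25. The 1 call there was Hspa4l, an Hsp110-type chaperone. It rose by 0.94 ± 0.18 in GK-S-30 over sham rats at a dim level, with means of 4.77 and 3.83 (adjusted p = 0.00704 by limma). Of 22 probes of immediate early genes, a list without Atf3, 19 had a higher mean in sham than in Wistar rats (median log2 fold change 0.27). Of all tested probes 49.8% had. Atf3 itself differed by -0.13 ± 0.43 (SE) in this comparison. From the list 1 probe was called, of Jund, a subunit of the AP-1 factor, by 1.35 (adjusted p = 1.4e-05 by limma). The other of its 2 probes differed by 0.14 (adjusted p = 0.605). In GK-S-30 against sham rats 5 of the 22 immediate early probes had a higher mean (median log2 fold change -0.30), and none was called.

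The rest of the pathway was read from 6 lists with 129 further genes, of which 119 genes with 155 probes were tested. Between GK-S-30 and sham rats 1 of 155 probes rose and 1 fell, 1.29% of them. Between sham and Wistar rats 1 rose and 2 fell, 1.94%. In GK-S-30 against Wistar rats 17 rose and 7 fell, 15.5%, which is below the share of all probes given above. The median log2 fold change of the 155 probes was 0.022, 0.078 and 0.11 in the same order.

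The single rise between the GK groups was 1 of 2 probes of Ero1l, the oxidase that recharges protein disulfide isomerases. The probe A_44_P212826 read 11.57, 11.69, 11.08, 11.57 and 11.30 in Wistar rats, 11.16, 10.98, 11.00, 10.93 and 10.98 in GK-Sham-PF rats, and 11.97, 11.88, 11.58, 11.63 and 11.68 in GK-S-30 rats. Every GK-S-30 array lay above every GK-Sham-PF array. By this probe Ero1l rose by 0.74 ± 0.12 (SE, adjusted p = 0.00201 by limma) in GK-S-30 over sham rats, and it fell by 0.43 ± 0.12 (adjusted p = 0.0391) in GK-Sham-PF against Wistar rats. The fall was no longer called without Wistar rat 1, 2 or 4, without GK-Sham-PF rat 2, 3, 4 or 5, or without GK-S-30 rat 5, while the rise was called with each array left out in turn. With slide as a fixed block A_44_P212826 was the 1 pathway probe of 155 still called between the GK groups, and none was called in the other 2 comparisons. The second Ero1l probe, A_44_P501992, averaged 8.83 in Wistar, 8.77 in sham and 9.34 in GK-S-30 rats, and its log2 fold changes of 0.57 ± 0.37 between the GK groups (adjusted p = 0.418) and -0.057 ± 0.37 between sham and Wistar rats were not called. Creb3l3, an ER-bound transcription factor of liver and intestine, fell by 0.44 ± 0.12 in GK-S-30 against sham rats (adjusted p = 0.0422). That call of Creb3l3 was kept without Wistar rat 3 or without GK-S-30 rat 3 or 5 and lost without any 1 of the other arrays.

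Of the sensors, Ern1 had no probe under that name and was not analysed here, and none of the others was called. Atf6 had log2 fold changes of -0.17 and -0.058 by its 2 probes between the GK groups and of 0.26 and 0.24 between sham and Wistar rats. Ern2, the Ern1 relative of gut epithelium, differed by 0.19 ± 0.23 (SE) between the GK groups and 0.33 ± 0.23 in GK-S-30 over Wistar rats. Eif2ak3 (PERK), dim at means of 5.70 to 5.87, differed by -0.17 ± 0.099 between the GK groups, and Eif2ak4 (GCN2), the kinase of amino acid shortage, by 0.19 ± 0.094 (adjusted p = 0.271). Among the other eIF2alpha kinases, Eif2ak1 is given with its list below, and Eif2ak2 (PKR), which responds to double-stranded RNA, was called by 1 of its 2 probes. The probe A_42_P467037 ran from 8.56 to 9.48 in Wistar rats, from 7.68 to 8.27 in GK-Sham-PF rats and from 7.89 to 8.45 in GK-S-30 rats. It fell by 1.16 ± 0.17 in GK-Sham-PF (adjusted p = 2.9e-04) and by 1.00 ± 0.17 in GK-S-30 (adjusted p = 5.5e-04) against Wistar rats, with no overlap in either. The second Eif2ak2 probe, A_44_P313825, averaged 7.98 in Wistar, 7.81 in sham and 7.86 in GK-S-30 rats and was called in no comparison (adjusted p = 0.739 for sham and 0.73 for GK-S-30 against Wistar rats).

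**Figure D4:**
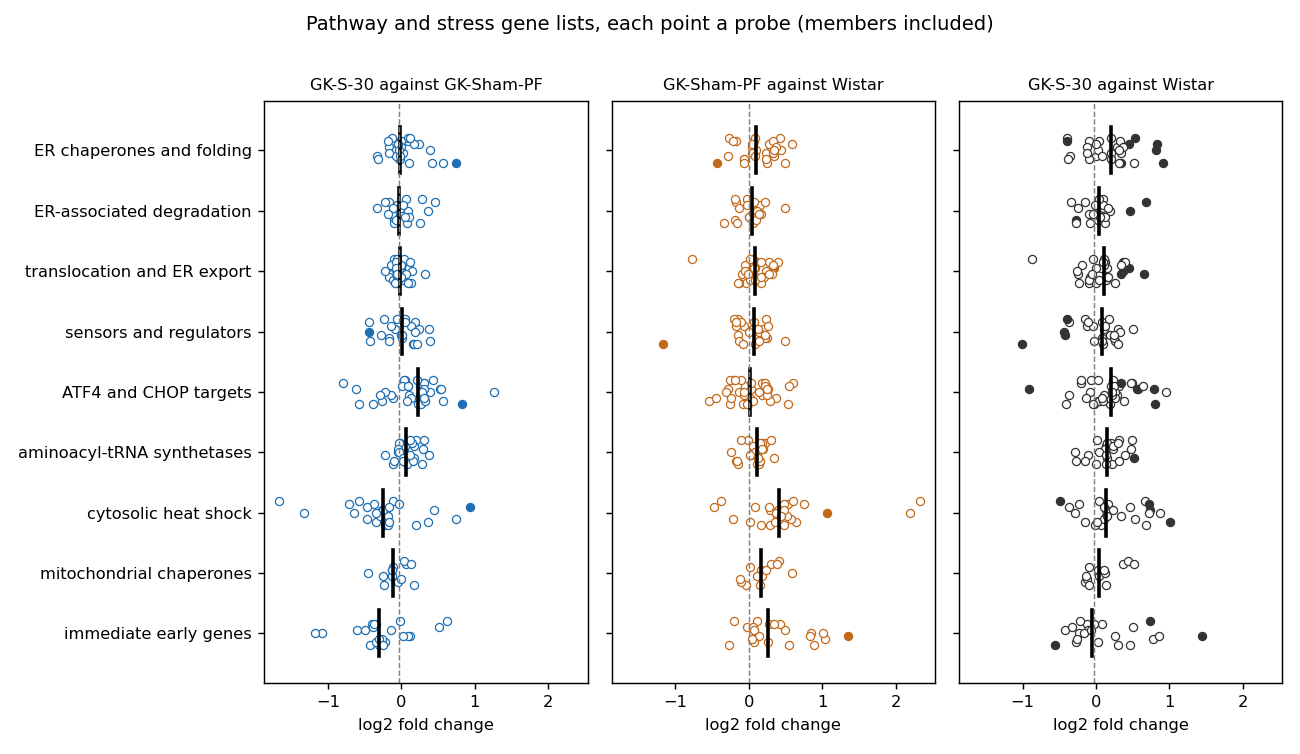
Log2 fold change of every tested probe (point) of 9 gene lists in the 3 comparisons (panels); filled points have an adjusted p under 0.05, black bars are list medians and the dashed line is the median of all tested probes. Filled points are sparse in the first 2 panels and most frequent in the third. The medians of heat shock and immediate early genes lie to the right of the line between sham and Wistar rats. Between GK-S-30 and sham rats these medians lie to its left.

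The calls that follow are those of GK-S-30 against Wistar rats, and names not given above were chosen after their values were seen. Of 29 probes of ER chaperones and folding enzymes, the Dnajb9 probe included, 6 rose and 1 fell, 24.1% of the list, near the 22.8% of all tested probes. Sdf2l1, a partner of Hspa5 and of its co-chaperones, rose by 0.91 ± 0.16 (SE, adjusted p = 6.5e-04 by limma), Creld2, an ER stress-induced secreted protein, by 0.83 ± 0.20 (adjusted p = 0.00828), and Dnajc10, an ER reductase, by 0.34 and 0.82 in its 2 probes. In Sdf2l1, Wistar rats read 10.49 to 10.89, GK-Sham-PF rats 11.02 to 11.53 and GK-S-30 rats 11.28 to 12.13. Its Wistar arrays lay below all others. In Creld2, Wistar rats read 9.14 to 9.99, GK-Sham-PF rats 9.75 to 10.56 and GK-S-30 rats 10.05 to 11.01. The isomerase Pdia6 rose by 0.45, and Ero1lb, the second ER oxidase, fell by 0.40.

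In the list of ER-associated degradation, 2 of 22 probes rose and 1 fell, 13.6% of the list and below the share of all probes. Derl3, a channel component that is strong in secretory cells, rose by 0.68 ± 0.14 (SE) and Ube2j1, a ubiquitin-conjugating enzyme of the ER, by 0.47 ± 0.13, while Ufd1l, a cofactor of the extracting ATPase, fell by 0.28. In the list of translocation and export, 6 of 31 probes rose and none fell, 19.4% of the list and below the share of all probes. They were Sec61g of the translocon (0.37), Ssr1 (0.37) and Ssr2 (0.45) of the TRAP complex beside it, the signal peptidase subunit Sec11c (0.36), and Kdelr2 (0.34) and Kdelr3 (0.65), receptors that return ER proteins from the Golgi. Ssr2 rose by 0.35 in GK-Sham-PF over Wistar rats as well (adjusted p = 0.0489 by limma), a call kept without GK-Sham-PF rat 1 or GK-S-30 rat 1 or 2 and lost without any 1 of the other arrays.

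Of the sensors and regulators 4 of 25 probes fell and none rose, 16% of the list and below the share of all probes: Eif2ak2, Creb3l3, Eif2ak1, the heme-regulated kinase (by 0.42), and Nfe2l2, the regulator of antioxidant genes (by 0.39). The list of Atf4 and Ddit3 targets includes the members Asns, Trib3, Ddit3 and Atf3. Of its 37 probes 4 rose and 1 fell, 13.5% of the list and below the share of all probes. The rises were Asns, the serine enzyme Psph (0.79), the mitochondrial serine hydroxymethyltransferase Shmt2 (0.34) and 1 probe of Aldh1l2 (0.55). The hormone Fgf21 fell by 0.91 at a dim level between 2.88 and 5.45. This list had the largest median of the 6 between the GK groups, 0.23, with 28 of 37 probes higher in mean, where 45.6% of all tested probes were. But Asns was its 1 call, 2.7% of the list against 6.7% of all tested probes. In 24 probes of aminoacyl-tRNA synthetases 1 rose (4.17%), a probe of Nars1, which charges asparagine tRNA (0.52, adjusted p = 0.00616 by limma), while its other probe differed by 0.23 (adjusted p = 0.501).

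**Figure D5:**
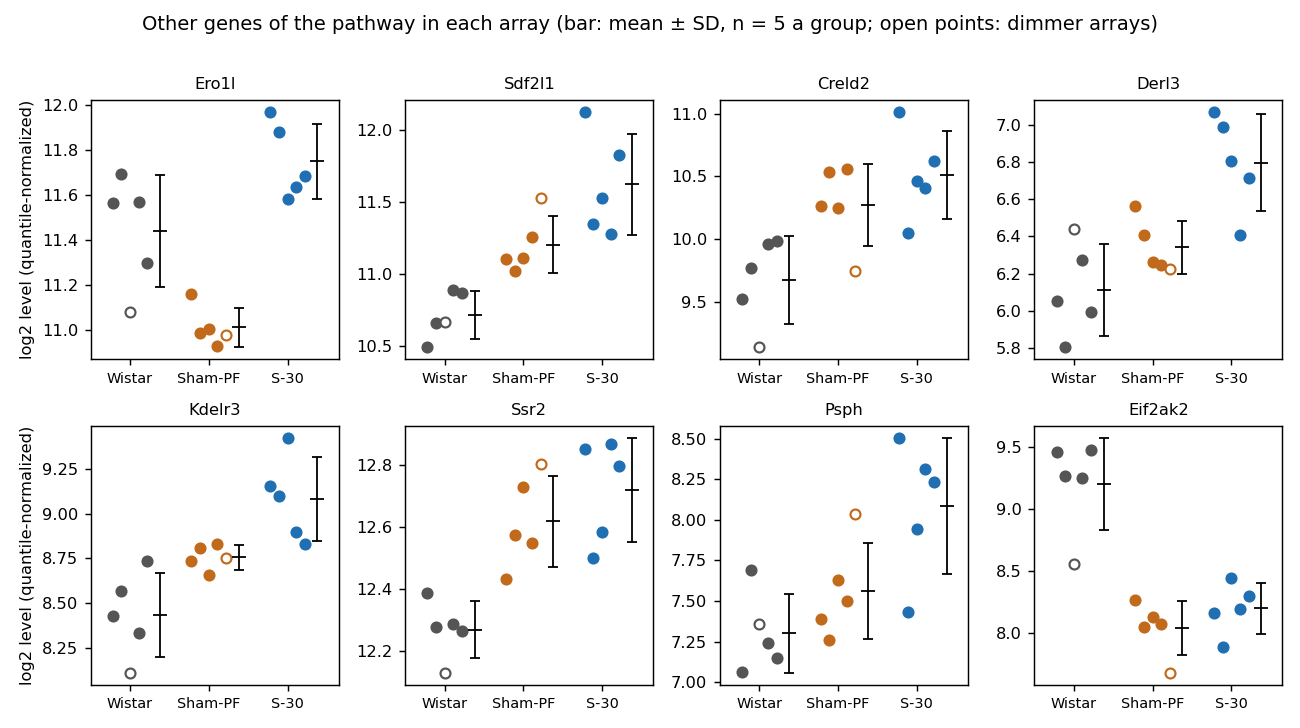
Quantile-normalized log2 level of 8 further genes of the pathway in the 5 arrays of each group (points; open points are the dimmer arrays) with the mean ± SD. Of the probes drawn, A_44_P212826 of Ero1l is lowest in mean in GK-Sham-PF rats, A_42_P467037 of Eif2ak2 is highest in Wistar rats, and GK-Sham-PF rats lie between the other groups in mean in Sdf2l1, Creld2, Derl3, Kdelr3, Ssr2 and Psph.

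Markers of several cell types moved with the groups. The summed level of 11 smooth muscle probes was 29508 to 50414 in Wistar, 27482 to 55644 in GK-Sham-PF and 89381 to 115374 in GK-S-30 rats. In GK-S-30 over sham rats 5 of the 11 were called higher, by log2 fold changes from 0.56 in Smtn to 2.35 in Actg2. This was 45.5% of the list, against 6.7% of all tested probes. The sum of 12 probes of plasma cell and B cell genes was 12564 to 19161, 16403 to 19678 and 18450 to 32722 in the same order. In GK-S-30 against Wistar rats 5 of them were called higher (41.7%, against 22.8% of all tested probes). Among these were Mzb1, an ER protein of antibody-secreting cells, by 1.17, and the B cell genes Cd79a and Cd79b. Against sham rats 3 were called higher (25%, against 6.7%), Mzb1 by 0.60 included. In sham against Wistar rats Cd79a and Cd79b were the 2 calls (16.7%, against 7.83%). The sum of 9 goblet probes, in the same order of groups, was 476320 to 573505, 579086 to 670057 and 574929 to 725504. In GK-S-30 against Wistar rats 4 of them were called higher (44.4%, against 22.8% of all tested probes). Of 6 Paneth probes 2 were called lower in that comparison (33.3%), Lyz and Pla2g2a, and none higher. Of 12 leukocyte probes 5 were called lower in GK-S-30 against Wistar rats (41.7%) and 2 against sham rats (16.7%), and none higher. Epithelium markers, which identify the labelled tissue, averaged log2 levels between 14.42 and 14.82 on every array. Of their 13 probes 4 were called higher and 1 lower in GK-S-30 against Wistar rats (38.5%, against 22.8% of all tested probes). Against sham rats 2 were called higher, of Krt18 and Krt19 (15.4%, against 6.7%), and none lower. Of the defining markers of pancreatic acinar cells, Cpb1, Cela3b, Pnlip, Cuzd1 and Clps were well above background on no array, while others such as Prss2, Ctrb1 and Cel were on all 15. The part of these cell types in the values of the members was not tested.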

How the data were processed

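Total RNA was measured with 1-colour Agilent arrays, 1 array per rat, 15 in all. Per the labels, spots were read with Agilent Feature Extraction 10.7 (10.7.3.1 per the file headers), and the deposited intensity used here is its processed signal, which is already background-corrected. The authors also deposited a table of log2 values for the same arrays, quantile-normalized per their methods, which served as an alternative.

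Control spots and outlier spots were left out, spots of a probe averaged, and log2 intensities quantile-normalized in limma 3.58.1 (R 4.3.3). Probes well above background on all arrays of at least 1 group were kept, 27893 of 41012. All 15 arrays entered 1 limma fit of the 3 groups with 3 comparisons, with Benjamini-Hochberg adjustment over all kept probes and a threshold of 0.05. Values printed as ± are SE for differences and SD (n = 5) for levels. Figures were drawn with matplotlib 3.10.9. The fit was tested on simulated data.

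Groups and replicate numbers were taken from the sample labels. Nothing used here says more about how independent the rats were, and the number of arrays limits the precision. On an array 66.7% to 74.8% of probes were well above background, and no spot of a member was saturated. The arrays lay on 4 slides, of which 1 held Wistar and GK-Sham-PF arrays and 1 held both GK groups.

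Alternatives were another scaling, background correction, filters, probe choice, slide and replicate number as blocks, pairwise fits, Tukey's correction and leaving out arrays. Genes named by rule were all members, all sensors, and the 5 genes most like Hspa5 and Asns. The rule added up to 4 called genes of each list with the largest change, between the GK groups and in sham against Wistar rats. Further named genes, among them those called in GK-S-30 against Wistar rats, were chosen after their values were seen. The members and the gene lists were chosen with earlier results of these data known. Promoter sequences came from RefSeq (GRCr8). Xbp1 and Ern1 transcripts were not analysed here.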

Additional observations from a re-analysis of the deposited data

Results flagged for a closer look

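Each of the 11 member probes was searched in each of the 3 groups for an array that stood apart from the other 4, by the ratio of its gap to the whole range. Of the 33 searches 1 passed the critical value of 0.71. Dnajb9 probe A_44_P127597 read 8.12 in Wistar rat 3, where the nearest Wistar array read 8.41, a ratio of 0.844. This search picks out about 1 in 20 groups by chance. Wistar rat 3 was also the dimmest of the 15 arrays.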

How the results depend on the processing

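No called difference of a member probe changed its direction under any alternative run. Of 11 member probes, the 1 called between the GK groups became 0 with slide as a fixed block, 0 with the replicate block and 0 with Tukey's p adjusted over all probes. The 2 called between GK-S-30 and Wistar rats became 1 with 1 probe per gene, 0 with slide as a fixed block and 0 with Tukey's p adjusted over all probes, and they became 3 with scaling to the 75th percentile (Atf4 added), with only the 2 groups compared and with Tukey's p unadjusted (the second Dnajb9 probe added in both). The 0 called by limma between GK-Sham-PF and Wistar rats (3 at an unadjusted p under 0.05) became 2 with Tukey's p unadjusted. Leaving out 1 array at a time gave 0 to 1, 2 to 3 and 0 to 1 called member probes in the same order of comparisons. In the third of these, GK-Sham-PF against Wistar, the probe was Dnajb9 A_44_P127597 without GK-Sham-PF rat 5 (0.53, adjusted p = 0.0281 by limma) and Dnajb9 A_44_P264777 without GK-Sham-PF rat 3 (0.48, adjusted p = 0.0322).

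Of the 155 other pathway probes, the 2 called between the GK groups became 5 with normexp background correction, 1 without the filter, 4 with 1 probe per gene, 1 with slide as a fixed block, 1 with the replicate block, 12 with Tukey's p unadjusted and 7 without the 2 dimmer arrays. The 3 called between GK-Sham-PF and Wistar rats became 1 without the filter, 0 with slide as a fixed block, 17 with Tukey's p unadjusted and 1 with it adjusted. The 24 called between GK-S-30 and Wistar rats became 0 with slide as a fixed block, which over all probes left 382, 414 and 454 calls between the GK groups, in sham against Wistar and in GK-S-30 against Wistar rats. Leaving out 1 array gave 1 to 6, 17 to 27 and 1 to 5 calls among the 155 probes, between the GK groups, in GK-S-30 against Wistar and in sham against Wistar rats. The cause of these changes was not tested.

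Replicate numbers are shared by the groups, and deviations of same-numbered arrays correlated between -0.28 and 0.19. With 5 pairs per comparison these values cannot show whether the numbers pair the rats, and the labels do not say. With the replicate block the Asns difference between the GK groups stayed at 0.82 with an adjusted p of 0.0804 by limma, and 20 and 2 other pathway probes were called for GK-S-30 and GK-Sham-PF against Wistar rats.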
